A study of Mus musculus with 12 samples.

Results

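The response of wild-type (WT) haematopoietic stem cells (HSCs) to interferon-γ (IFN-γ) was read in 6 of the 12 bulk RNA-seq libraries of the series. They were the libraries titled as untreated WT (3, called naive here) and as IFN-γ-treated WT (3), all from the bone marrow of C57BL/6 mice that carry no targeted allele in the labels. Treated mice had received rm-IFNg (100 µg, 24 h), and naive mice had not. The cells came from leg, pelvis and hip bones and were sorted as Lineage-, c-Kit+, CD150+, CD48- and CD34-. No age is given in the labels and no library is tied to an animal there, so each p-value below describes the spread between libraries, which may be technical. The other 6 libraries, from *Bst2* knockout (KO) mice, naive or given the same agent, entered the fit to help estimate the spread and are compared for 2 sets of genes only. Of 24946 genes in the deposited table, 10816 (43.4%) had a value of at least 100 in 3 or more of the 12 libraries and were tested. A unit below is 1 unit of the authors' normalized signal.

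IFN-γ binds a receptor made of IFNGR1 and IFNGR2 chains, which carry the Janus kinases JAK1 and JAK2. The signal then reaches gamma-activated sites in the nucleus and switches on a first set of genes that includes further transcription factors of the IRF family. The targets present antigen, restrict viruses and intracellular microbes, or dampen the pathway. HSCs carry the receptor, and in the mouse IFN-γ is known to drive them out of quiescence and to shift them towards myeloid differentiation.

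Library codes in the titles put the 6 libraries into code series, FL-06 (naive 1 and 2, treated 1 and 2) and R-09 (naive 3, treated 3). The series stood far apart, with Spearman correlations of 0.485 to 0.561 between libraries of different series and 0.877 to 0.992 within a series, so values are given by series. The values carry no read totals. From the smallest common step between low values depth was roughly estimated, taking 1 step as 1 read, which was not tested, at 10.1 M reads in naive 1, 0.495 M in naive 2, 52.1 M and 45.4 M in treated 1 and 2, 9.73 M in naive 3 and 8.77 M in treated 3. By this estimate the treated libraries of FL-06 were the deeper ones, while the R-09 pair was nearly even. Naive 2 is called shallow below on the same estimate. The part of depth in the results was not tested beyond the values without naive 2 and by series given below. Of the tested genes, 975 (9.01%) were listed at 0 in naive 2, against 16 to 200 in each of the other 5. Among the gate genes *Kit*, which encodes c-Kit, lay between 5902 and 11222 units and *Slamf1*, which encodes CD150, between 366 and 768 units, but *Cd34* transcripts were present at 462 to 3331 units and *Cd48* at 23.1 to 582 units.

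Of all genes tested, *Cd74* rose and none fell (Benjamini-Hochberg adjusted p under 0.05 in the limma fit, 0.00925% of genes called higher and 0% lower). *Cd74* encodes the invariant chain that guides MHC class II molecules to the peptide-loading compartment. It measured 669 and 429 units in the FL-06 naive libraries, 4224 and 4731 units in the FL-06 treated ones, and 3535 units naive against 10261 units treated in R-09. Both FL-06 treated libraries lay far above both naive ones, and the R-09 pair moved the same way from a higher start. The log2 fold change was 2.55 (SE 0.30, 5.86-fold, limma adjusted p = 0.03547). Without the shallow naive 2 it was 2.22 (limma adjusted p = 0.004158). With the replicate number as a block the limma adjusted p was 0.9999 over 12 libraries and 0.2008 over the 6 WT libraries. The 12-library block has no code series term and joins KO libraries of different code series, so series differences among KO libraries enter its spread. The call was also lost without any 1 of naive 1, treated 1, treated 2 or the 6 KO libraries (adjusted p = 0.06514 to 0.2891).

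An unadjusted limma p under 0.05 was reached by 616 higher genes (5.7%) and 188 lower genes (1.74%), against 541 in all expected if no gene differed, and the median log2 fold change of all tested genes was 0.11. Higher genes made up 76.6% of these 804 genes, but 55.4% after quantile normalization (455 higher and 366 lower). The counts fell short of the expected 541 with the replicate block over 12 libraries (64 higher and 9 lower) and without the code series (69 and 10). Both of those fits leave code series differences in the spread, the block over 12 libraries through the KO pairs. The counts were 351 and 155 with the block over the 6 WT libraries. Leaving out naive 1 gave 1477 higher and 325 lower genes, naive 3 1149 and 339, treated 1 241 and 97, and treated 2 233 and 111; without naive 2 there were 734 and 296. Each list's count at an unadjusted p under 0.05 below belongs to the reported fit and was not recounted under these settings. A second reading asked only for direction, that both FL-06 treated libraries lay above both FL-06 naive ones and that the R-09 pair had the same order. By that reading 1643 genes (15.2%) were higher and 946 (8.75%) lower. The 3 treated and 3 naive values did not overlap at all in 227 higher genes (2.1%) and 132 lower genes (1.22%). These shares are the background for every count below.

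The 12 genes with the smallest p among those higher in both series were *Cd74*, *H2-K1*, *Tap1*, *H2-Ab1*, *Gbp3*, *H2-Eb1*, *Coro1a*, *Gtf3c4*, *Ipo5*, *Scd2*, *H2-Aa* and *H2-T22*. Of these, 8 act in antigen presentation or are interferon-inducible GTPases. Their folds ran from 1.40 to 5.86 and their limma adjusted p from 0.03547 to 0.5235. In the 6 KO libraries, which share the fitted spread and the code series term but no library with the WT groups, all 12 were also higher after IFN-γ, where 51% of all genes were. Their median log2 fold change was 1.04 in WT, where they were chosen and large changes are favoured, and 0.83 in KO.

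**Figure D1:**
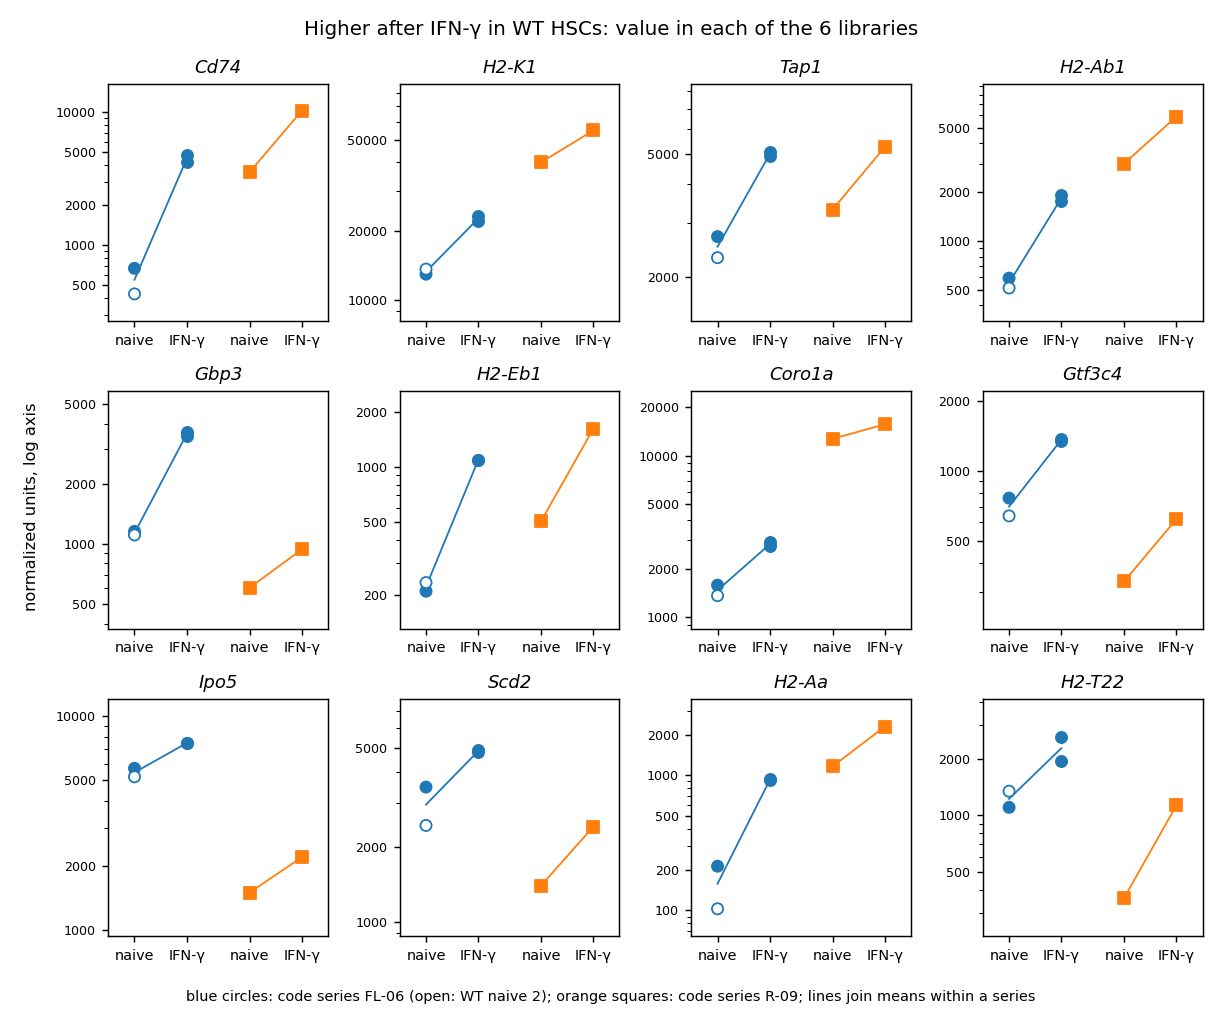
Normalized units (log axis) of the 12 genes in each of the 6 WT libraries, naive and IFN-γ-treated, by code series; each point is 1 library and lines join the means within a series. As the selection of the genes required, the treated points of FL-06 (blue) lie above the naive ones and the R-09 line (orange) climbs in all 12 panels. The starting level differs between the series.

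MHC class II molecules display peptides to helper T cells, and *Ciita* is the coactivator that switches the class II genes on. All 14 tested members of the class II list had a log2 fold change above 0 (62.2% of all genes did), 7 had an unadjusted p under 0.05 and 10 were higher in both series. The list's median was 1.30, made of 1.70 in FL-06 (1.51 without naive 2) and 0.46 in R-09. *H2-Ab1*, the class II β chain of the I-A molecule, measured 588 and 511 units in the FL-06 naive libraries, 1913 and 1761 units in the FL-06 treated ones, and 3006 units naive against 5858 units treated in R-09. Its treated values lay above the naive ones in each series, by more in FL-06, with 2.79-fold over both (log2 1.48, SE 0.23, limma adjusted p = 0.1306). *H2-Aa*, its α chain partner, measured 212 and 103 (naive) and 914 and 931 units (treated) in FL-06 and 1160.3 and 2289.8 units in R-09, and *H2-Eb1*, the β chain of the I-E molecule, 210.0 and 234 (naive) and 1093 and 1088 units (treated) in FL-06 and 505 and 1610.4 units in R-09. For *H2-Eb1* the 3 treated values all lay above the 3 naive ones (4.25-fold, limma adjusted p = 0.2949).

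*Ciita* itself was barely detected in naive cells. It measured 11.4 and 0 units in naive and 178 and 188 units in treated FL-06 cells and 52.6 units in naive and 109 units in treated R-09 cells, so the groups did not overlap, but a naive value of 0 in the shallow library makes its fold unreliable. *H2-DMa*, a chain of the DM molecule that exchanges peptides on class II, measured 222 and 133 (naive) and 498 and 588 units (treated) in FL-06 and 3121 and 3222 units in R-09, a difference on the log2 scale of 1.65 in the former and 0.05 in the latter. The RFX complex binds class II promoters together with other factors. Of its genes, *Rfx5* had a log2 fold change of 0.65 (95% interval −0.03 to 1.33), *Rfxap* of 0.09 (−0.36 to 0.53) and *Rfxank* of 0.15 (−0.53 to 0.83), and all 3 intervals included 0. *H2-Eb2* and *H2-DMb2* did not pass the level filter.

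MHC class I molecules display peptides made inside the cell on almost every cell type, and they were already abundant in naive HSCs. Of 13 tested genes of the class I list, 12 had a log2 fold change above 0, 7 had an unadjusted p under 0.05 and 10 were higher in both series, with a median of 0.57 (0.75 in FL-06, 0.39 in R-09). *H2-K1*, a classical heavy chain, measured 12983 and 13664 units in the FL-06 naive libraries, 22208 and 23203 units in the FL-06 treated ones, and 39888 units naive against 54932 units treated in R-09. Treated lay above naive in each series, 1.59-fold over both (log2 0.67, SE 0.09, limma adjusted p = 0.06051). *H2-D1*, the other classical heavy chain, measured 15757 and 16052 (naive) and 21005 and 20165 units (treated) in FL-06 and 60821 and 72828 units in R-09, a smaller difference (1.26-fold, adjusted p = 0.5676 in limma). *B2m*, the light chain that all class I molecules share, measured 7391 and 7946 (naive) and 12672 and 13364 units (treated) in FL-06 and 42329 and 48252 units in R-09. *H2-T22*, a non-classical chain with close paralogs, measured 1100.3 and 1342 (naive) and 2595 and 1952 units (treated) in FL-06 and 363 and 1126 units in R-09. It differed more in R-09 (log2 1.63) than in FL-06 (0.89), as did *H2-T10* (0.54 and 0.22). *H2-Q7*, also one of several near-identical copies, measured 1365 and 453 (naive) and 3261 and 3069 units (treated) in FL-06 and 8429.6 and 13954 units in R-09, with 2.99-fold over both (log2 1.58, 1.03 without naive 2). *Nlrc5*, the class I coactivator, had the opposite order in R-09, with 2400.1 and 1760.3 (naive) and 2759 and 2566 units (treated) in FL-06 and 342 and 215 units in R-09. Reads of the class I paralogs may have been split between them by the counting.

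Peptides reach class I through the immunoproteasome, which cuts proteins, and the TAP transporter, which carries the pieces into the endoplasmic reticulum. In this list 12 of 13 tested genes had a log2 fold change above 0, 7 had an unadjusted p under 0.05 and 9 were higher in both series (median 0.46; 0.65 in FL-06 and 0.19 in R-09). *Tap1* measured 2708 and 2316 units in the FL-06 naive libraries, 5061 and 4939 units in the FL-06 treated ones, and 3310.3 units naive against 5266 units treated in R-09. No treated value overlapped a naive one, and naive levels were similar in both series (1.85-fold, log2 0.89, SE 0.13, limma adjusted p = 0.07638). *Tapbp*, tapasin, which bridges TAP and class I, measured 1984 and 2116 (naive) and 4029 and 3928 units (treated) in FL-06 and 6241 and 7139.7 units in R-09. *Psmb8*, a catalytic immunoproteasome subunit, measured 2707 and 3496 (naive) and 5882 and 5440.1 units (treated) in FL-06 and 8311 and 11421 units in R-09, and *Psme2*, part of the proteasome activator PA28, 1638 and 1681 (naive) and 2876 and 2591 units (treated) in FL-06 and 3416 and 3895 units in R-09. The general chaperones were flatter. *Canx*, calnexin, had a log2 fold change of 0.00 (95% interval −0.28 to 0.29), and *Calr*, calreticulin, of 0.30 (0.02 to 0.58).

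**Figure D2:**
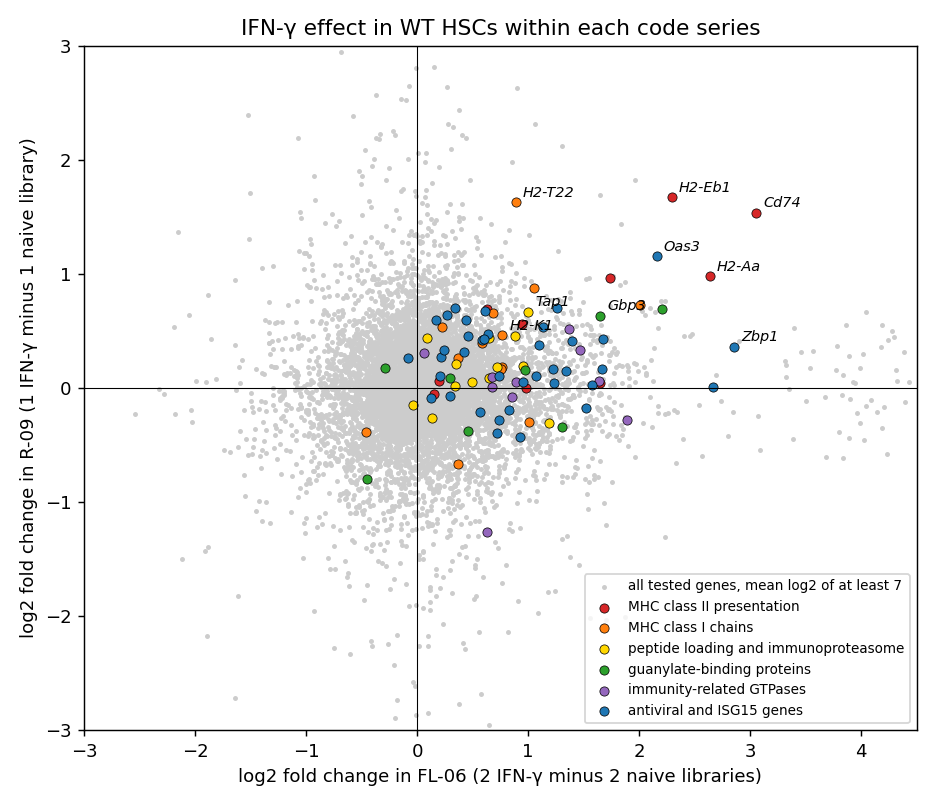
Log2 fold change (treated minus naive) of each gene in FL-06 (horizontal, 2 against 2 libraries) and R-09 (vertical, 1 against 1), for the 9160 tested genes whose log2 values averaged 7 or more (grey) and 92 members of 6 lists (coloured); 45 grey genes lie outside the axes. Of the coloured genes, 68 lie above 0 on both axes, as do 2975 (32.5%) of the 9160.

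Of 22 tested genes upstream of these targets, for receptors, kinases, transcription factors and SOCS proteins, 3 had an unadjusted p under 0.05, all higher, and 5 were higher and 2 lower in both series. The median was 0.17, with 0.27 in FL-06, 0.10 there without naive 2 and −0.07 in R-09, and it was −0.0012 after quantile normalization. *Irf7*, a factor of the interferon amplification loop, did not overlap between the groups, at 562 and 642 (naive) and 1572 and 1809 units (treated) in FL-06 and 984 and 1444 units in R-09. *Socs1*, the inhibitor that shuts the receptor's kinases off, measured 0 and 0 units in naive and 39.3 and 54.8 units in treated FL-06 cells and 184 units in naive and 153 units in treated R-09 cells, so the treated libraries of FL-06 were the higher ones and the treated R-09 library the lower one. *Irf1*, a primary IFN-γ target, measured 965 and 816 (naive) and 1386 and 1214 units (treated) in FL-06 and 2861 and 2415 units in R-09, again without the same order in R-09. *Ifngr1* had a log2 fold change of 0.16 (95% interval −0.18 to 0.50), *Jak1* of −0.17 (−0.43 to 0.09) and *Jak2* of −0.01 (−0.39 to 0.36). *Ifngr2* was listed at 0 in naive 2 and measured 585 units in naive and 523 units in treated R-09 cells, so no fold is read for it.

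Guanylate-binding proteins and immunity-related GTPases are IFN-γ-induced enzymes that attack the vacuoles of intracellular microbes. Of 9 tested guanylate-binding protein genes, 3 had an unadjusted p under 0.05 and 5 were higher in both series (median 0.70; 0.97 in FL-06 and 0.16 in R-09). *Gbp3* measured 1157 and 1110.1 units in the FL-06 naive libraries, 3471 and 3621 units in the FL-06 treated ones, and 604 units naive against 939.9 units treated in R-09 (2.48-fold, log2 1.31, SE 0.21, limma adjusted p = 0.1512). *Gbp7* measured 3060.2 and 2368 (naive) and 5474 and 5107 units (treated) in FL-06 and 1576 and 1755 units in R-09. *Gbp6* measured 937 and 153 (naive) and 1744 and 1757 units (treated) in FL-06 and 398 and 642 units in R-09, with the shallow library lowest (log2 1.70, 0.82 without naive 2). *Gbp8* was lower in both series, at 398 and 586 (naive) and 366 and 341 units (treated) in FL-06 and 264 and 152 units in R-09. Among 11 tested immunity-related GTPases, 4 had an unadjusted p under 0.05 and 6 were higher in both series (median 0.55; 0.86 in FL-06 and 0.06 in R-09). *Ifi47* measured 257 and 537 (naive) and 918 and 1007 units (treated) in FL-06 and 2918 and 4185 units in R-09 and *Irgm1* 1470.0 and 1074 (naive) and 1950.2 and 2062 units (treated) in FL-06 and 2762 and 2952 units in R-09. *Irgm2* measured 485 and 217 (naive) and 1210.5 and 1206 units (treated) in FL-06 and 1039 and 858 units in R-09, with the opposite order in R-09. *Tgtp2*, the most abundant of the family, measured 10033 and 6490.0 (naive) and 14949 and 11097 units (treated) in FL-06 and 10141 and 10209 units in R-09, with non-overlapping groups and a difference in R-09 of 0.01 on the log2 scale. Both families consist of close copies whose reads the counting could have divided.

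Antiviral genes and the ISG15 system form the largest interferon group, with 44 tested members. Of these, 43 had a log2 fold change above 0, 21 had an unadjusted p under 0.05, 30 were higher in both series and 11 did not overlap between groups (median 0.61; 0.88 in FL-06, 0.78 there without naive 2, and 0.27 in R-09). None was lower in both series. *Oas3*, an enzyme that makes the RNase L activator, measured 389 and 162 (naive) and 1029 and 1234 units (treated) in FL-06 and 155 and 346 units in R-09. *Zbp1*, a sensor of Z-form nucleic acids that can trigger necroptosis, measured 178 and 156 (naive) and 1312 and 1122 units (treated) in FL-06 and 262 and 338 units in R-09, a difference of 2.86 in FL-06 and 0.36 in R-09 on the log2 scale. *Dhx58*, the RNA sensor LGP2, measured 220.1 and 264 (naive) and 851 and 697 units (treated) in FL-06 and 590.2 and 798 units in R-09. *Uba7*, the enzyme that activates ISG15 for conjugation, measured 1465 and 2015 (naive) and 2689 and 2471 units (treated) in FL-06 and 3320.2 and 4436 units in R-09. *Isg15* was listed at 0 in naive 2 and measured 87.6 and 287 units in the other naive libraries against 378 to 417 units in the treated ones. *Bst2*, the gene deleted in the other arm of the study, measured 336 and 152 (naive) and 547 and 606 units (treated) in FL-06 and 1367 and 1514 units in R-09.

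The 8 interferon and MHC lists together (the 6 above, the receptor and signalling genes and the transmembrane Ifitm genes) held 149 unique genes of the table, of which 130 were tested. Of the 130, 53 had an unadjusted p under 0.05 and were higher, 0 were lower at that level, 76 were higher in both series and 4 were lower in both. Their median log2 fold change was 0.55, with 0.72 in FL-06, 0.70 there without naive 2, and 0.15 in R-09, beside 0.11, 0.13, 0.04 and 0.02 for all genes. Among the Ifitm genes the members parted: *Ifitm3*, which blocks viral entry, measured 729.9 and 512 (naive) and 1916 and 1865 units (treated) in FL-06 and 12199.6 and 13463 units in R-09 and *Ifitm1*, its relative, 1194 and 1435 (naive) and 1036 and 1012 units (treated) in FL-06 and 11541 and 7203 units in R-09. The sign of the median of the 4 tested Ifitm genes depended on the filter and on quantile normalization.

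Promoters of these genes were searched for the letters of the 2 elements that interferon signals are known to act through. They are the gamma-activated site (TTCNNNGAA) and the core of the interferon-stimulated response element (GAAA, any 2 bases, GAAA), bound by IRFs. Both strands of RefSeq windows from 250 bases before to 50 bases after each gene's start (GRCm38.p6) were read, and 8603 of the 10816 tested genes had a window. The response element core was present in 332 of them (3.86%) and the gamma-activated site in 704 (8.18%). Of the 53 interferon and MHC genes that were higher with an unadjusted p under 0.05, 42 had a window. The response element core was present in 15 of those (35.7%) and the gamma-activated site in 6. Counts by family cover every tested member with a window, whether higher or not. The core was present in 4 of 4 guanylate-binding protein genes, 7 of 8 immunity-related GTPases, 12 of 32 antiviral, 3 of 9 class I and 1 of 10 class II genes. It was also in 2 of 11 peptide loading, 3 of 19 receptor and signalling and 2 of 4 Ifitm genes. In the same order, the gamma-activated site was in 2 of 4, 5 of 8, 8 of 32, 1 of 9, 0 of 10, 1 of 11, 5 of 19 and 2 of 4. Whether higher members held either element more often than the other members of their lists was not tested. Copies within a family share sequence and are not independent. The lines below show the core in 8 of the genes whose values are given here, in 60 bases each, or 49 in *Irgm1*. They run 5′ to 3′ on the gene's strand, end before the start, and have the bases of the core, read on either strand, in capitals.
Gbp3, chr3:142559980-142560039, plus strand: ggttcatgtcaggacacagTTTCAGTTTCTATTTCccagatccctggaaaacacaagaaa
Gbp7, chr3:142530258-142530317, plus strand: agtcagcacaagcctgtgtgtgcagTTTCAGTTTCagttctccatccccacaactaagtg
Irgm1, chr11:48871421-48871469, minus strand: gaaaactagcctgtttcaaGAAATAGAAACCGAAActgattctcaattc
Irgm2, chr11:58214888-58214947, plus strand: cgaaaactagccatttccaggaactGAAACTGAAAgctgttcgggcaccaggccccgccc
B2m, chr2:122147523-122147582, plus strand: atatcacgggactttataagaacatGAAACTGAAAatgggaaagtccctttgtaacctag
H2-T22, chr17:36042899-36042958, minus strand: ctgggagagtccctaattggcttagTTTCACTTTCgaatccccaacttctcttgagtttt
Oas3, chr5:120777700-120777759, minus strand: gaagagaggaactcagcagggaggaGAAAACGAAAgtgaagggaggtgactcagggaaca
Isg15, chr4:156200850-156200909, minus strand: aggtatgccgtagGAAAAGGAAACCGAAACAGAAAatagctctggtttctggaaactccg
In *Gbp3*, *Irgm1* and *Isg15* several matches overlap into 1 run, and in the others the match stands alone within the stretch. A match describes these letters and is not a measured site of binding.

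**Figure D3:**
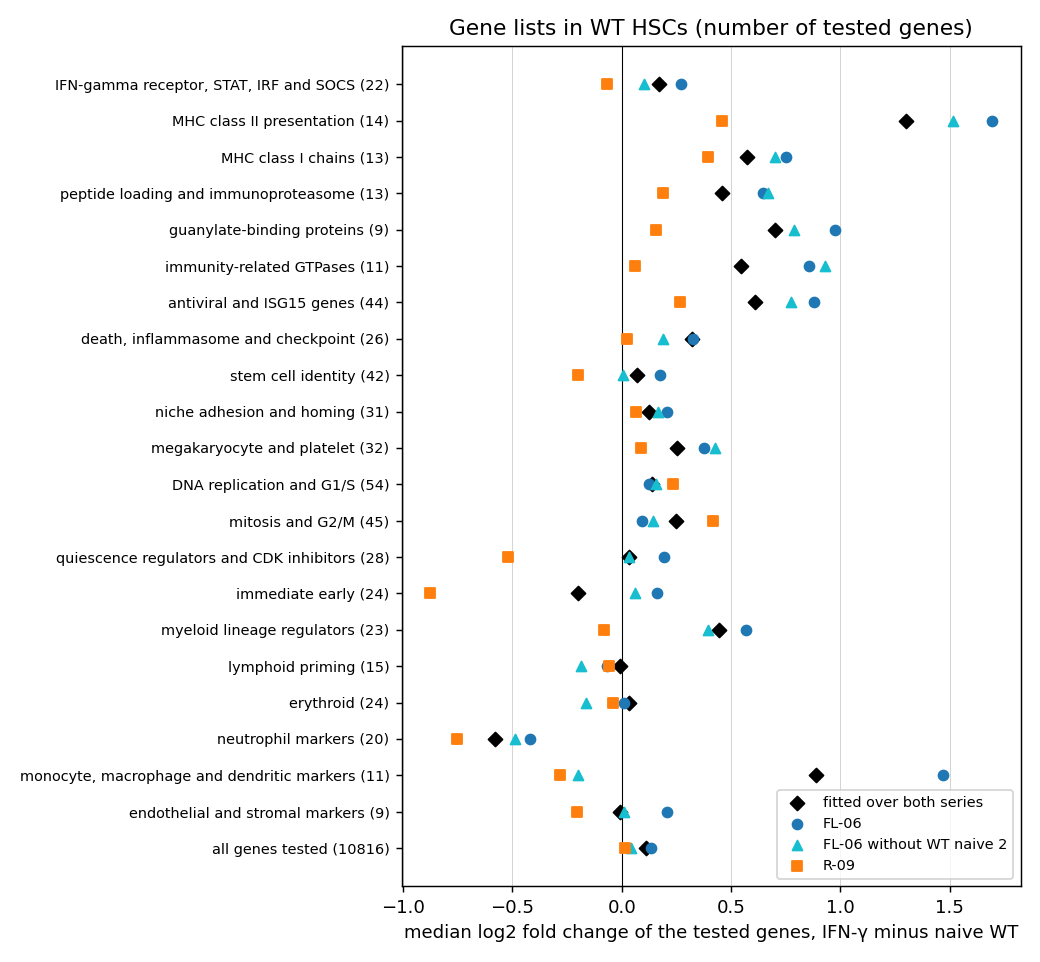
Median log2 fold change (treated minus naive WT) of each gene list with at least 9 tested genes and of all tested genes, with the number tested in brackets; symbols give the fit over both series, FL-06, FL-06 without naive 2, and R-09. MHC class II, class I, peptide loading, both GTPase families and antiviral genes have all 4 symbols to the right of 0. So do all tested genes (0.11, 0.13, 0.04 and 0.02) and the death, niche adhesion, megakaryocyte, replication and mitotic lists. The monocyte, macrophage and dendritic list turns from 1.47 in FL-06 to −0.20 without naive 2.

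Of 42 tested stem cell genes, 4 had an unadjusted p under 0.05 and were higher and 2 were lower, 8 were higher and 6 lower in both series. Their median of 0.07 was made of opposite signs, 0.18 in FL-06 and −0.20 in R-09, and was −0.09 without naive 2. Of 33 plotted with a naive mean of at least 500 units, 28 had a fitted change of less than 0.5 on the log2 scale in either direction, and 5 had a 95% interval that left out 0. *Mecom*, a transcription factor required for long-term HSCs, had a log2 fold change of −0.01 (95% interval −0.42 to 0.39), *Hlf*, which marks HSCs, of −0.18 (−0.46 to 0.09), and *Gata2*, a central HSC factor, of 0.07 (−0.30 to 0.44). *Ly6e*, an interferon-inducible surface protein of the Sca-1 family, measured 2839 and 2895 (naive) and 4089.9 and 4958 units (treated) in FL-06 and 11969.9 and 16992 units in R-09 (1.52-fold, limma adjusted p = 0.5676). *Ly6a*, which encodes Sca-1 itself, was listed at 0 in naive 2, and the other naive values were 131 and 1619 units against 275, 303 and 2303 units treated. *Fgd5*, a marker restricted to HSCs and endothelium, was lower in both series at 1253 and 1472 (naive) and 803 and 879 units (treated) in FL-06 and 362 and 189 units in R-09 (0.59-fold, adjusted p = 0.5835 in limma). Of the gate genes, *Kit* was lower in both series with a log2 fold change of −0.25 (95% interval −0.52 to 0.02), as was *Slamf1* (−0.55, −1.27 to 0.17), and *Cd34* was higher in both (0.47, 0.08 to 0.86). The sort selected on these proteins, so their transcripts do not describe unselected cells.

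**Figure D4:**
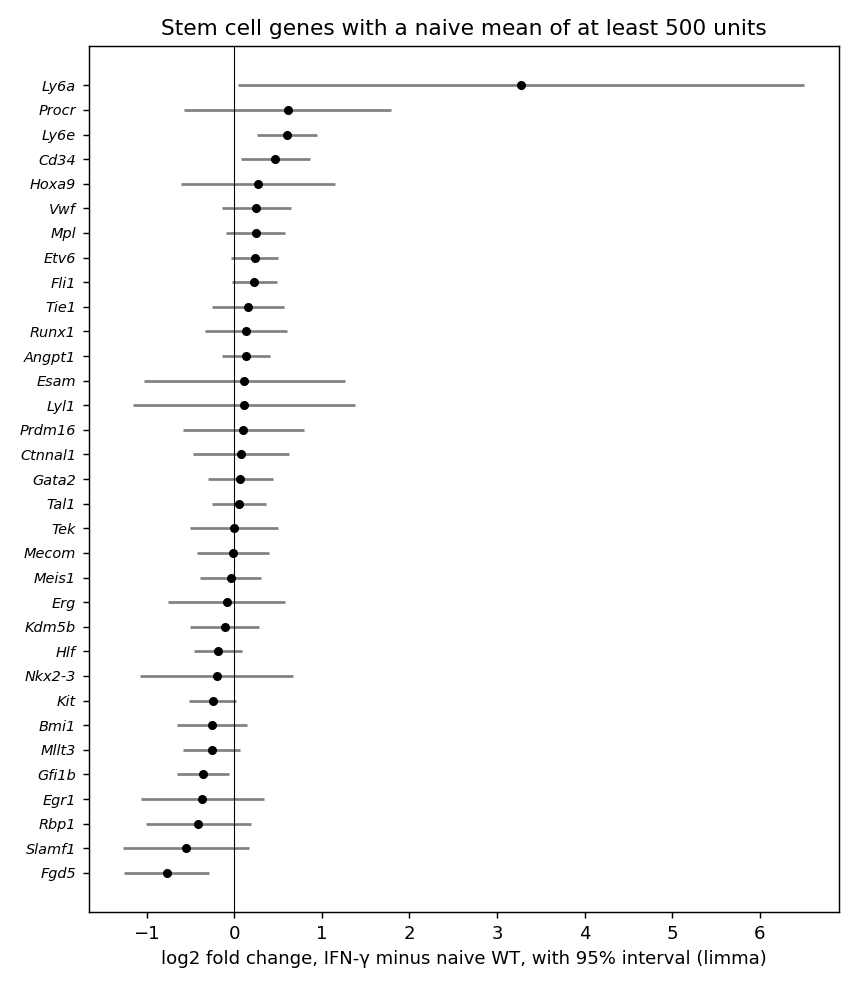
Log2 fold change (treated minus naive WT) with its 95% interval from the limma fit for 33 stem cell genes with a naive mean of at least 500 units. Most intervals include 0; *Ly6a*, which is listed at 0 in naive 2, has the widest one.

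For the replication and mitotic lists, the FL-06 medians lay below that of all genes (0.13). Their medians lay above it in FL-06 without naive 2 (all genes 0.04), in R-09 (0.02) and over both series (0.11). Among all genes 5.7% were higher at an unadjusted p under 0.05 and 15.2% were higher in both series, smaller shares than in either list. Of 54 tested replication and G1/S genes, 8 had an unadjusted p under 0.05, all higher, and 15 were higher and 3 lower in both series (median 0.14; 0.12 in FL-06 and 0.23 in R-09). *Mcm3*, a subunit of the replicative helicase, measured 10802 and 9341 (naive) and 13591 and 12761 units (treated) in FL-06 and 7499 and 9482 units in R-09 (1.30-fold, limma adjusted p = 0.5676). *E2f1*, which switches on S-phase genes, measured 467 and 408 (naive) and 874 and 727 units (treated) in FL-06 and 1436 and 2058 units in R-09, and *Cdk4*, a G1 kinase, 2438 and 2642 (naive) and 3114 and 3242 units (treated) in FL-06 and 10307 and 12827 units in R-09. Of 45 mitotic genes, 11 had an unadjusted p under 0.05 and were higher, and 14 were higher and 0 lower in both series (median 0.25; 0.09 in FL-06 and 0.42 in R-09). *Tpx2*, a spindle assembly factor, measured 2585 and 3053 (naive) and 3548 and 3199 units (treated) in FL-06 and 937 and 1629.8 units in R-09. *Racgap1*, needed for cytokinesis, measured 914 and 336 (naive) and 1043 and 958 units (treated) in FL-06 and 1039 and 2211 units in R-09. *Mki67*, the proliferation marker, measured 22650.5 and 24051 (naive) and 23874 and 23139 units (treated) in FL-06 and 332 and 599 units in R-09, so the groups overlapped in FL-06 and the treated value was the higher one in R-09. Of 28 tested quiescence regulators, 1 was higher and 3 lower at an unadjusted p under 0.05, and 4 were higher and 4 lower in both series. Their median of 0.03 joined 0.19 in FL-06 with −0.52 in R-09. *Rbl1*, the member higher at an unadjusted p under 0.05, measured 1909 and 1830 (naive) and 2344 and 2207 units (treated) in FL-06 and 796 and 1076 units in R-09. *Gfi1*, a repressor that restrains HSC proliferation, measured 224 and 583 (naive) and 96 and 98.7 units (treated) in FL-06 and 612 and 232 units in R-09, lower in both series (0.30-fold, limma adjusted p = 0.6226), and *Txnip*, an inhibitor of thioredoxin, 7589 and 6636 (naive) and 5989 and 6208 units (treated) in FL-06 and 11057 and 8023 units in R-09.

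In the niche adhesion list, 3 of 31 tested genes were higher and 2 lower at an unadjusted p under 0.05. *Itgal*, the αL chain of the integrin LFA-1, measured 197 and 101 (naive) and 434 and 395 units (treated) in FL-06 and 189.5 and 371 units in R-09 without overlap. *Icam1*, its ligand, measured 367 and 836 (naive) and 313 and 258 units (treated) in FL-06 and 1151 and 738 units in R-09, lower in both series. *Vcam1*, the ligand of the integrin VLA-4, was also lower in both, at 226 and 259 (naive) and 63.3 and 81 units (treated) in FL-06 and 953 and 656 units in R-09. *Vcam1* is also a macrophage marker, and the summed level of the 29 monocyte, macrophage and dendritic markers was 3010 and 3137 units in naive FL-06, 2453 and 2528 in treated FL-06, 29300 in naive R-09 and 21311 in treated R-09. Its part in the *Vcam1* values was not tested. *Cxcr4*, the receptor that holds HSCs near CXCL12, had a log2 fold change of −0.01 (95% interval −0.92 to 0.89). Of 26 tested death and checkpoint genes, 2 had an unadjusted p under 0.05, both higher, and 3 were higher and 1 lower in both series. Among all genes 5.7% were higher at that p and 15.2% were higher in both series. *Casp8*, the initiator caspase of death receptors, measured 1258 and 594 (naive) and 1696 and 1796 units (treated) in FL-06 and 1407 and 1760.0 units in R-09, and *Bcl2l1*, which encodes the survival protein BCL-XL, 642 and 79.8 (naive) and 887 and 999 units (treated) in FL-06 and 728 and 829 units in R-09. Naive 2 was the lowest library for both, and their log2 fold changes were 0.78 and 1.43 with it and 0.42 and 0.38 without it. *Cd274*, which encodes the checkpoint ligand PD-L1, measured 593 and 73.8 (naive) and 452 and 498 units (treated) in FL-06 and 510.3 and 424 units in R-09.

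Megakaryocyte and platelet genes, which a platelet-biased subset of HSCs expresses, were higher in 12 and lower in 3 of 32 tested genes in both series, and 6 were higher and 1 lower at an unadjusted p under 0.05 (median 0.25; 0.38 in FL-06 and 0.09 in R-09). *Slc14a1*, a urea transporter found in HSCs and platelets, measured 1965 and 1605 (naive) and 2638 and 2885 units (treated) in FL-06 and 4666 and 5794 units in R-09 and *Itga2b*, the platelet integrin chain CD41, 3342 and 2585 (naive) and 5382 and 5071 units (treated) in FL-06 and 9624 and 11462 units in R-09. *Gp5*, a platelet adhesion glycoprotein, measured 157 and 146 (naive) and 393 and 489 units (treated) in FL-06 and 2258 and 2672 units in R-09. Their limma adjusted p lay between 0.5235 and 0.5676.

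Of 20 tested neutrophil markers, 16 had a log2 fold change below 0 and 4 above it, and none passed the adjusted threshold. In both series 8 were lower and 1 higher, 6 had an unadjusted p under 0.05 and were lower, with a median of −0.58 (FL-06 alone −0.42, R-09 alone −0.75). *Ngp*, a granule protein, measured 4012 and 3417 (naive) and 2014 and 1963 units (treated) in FL-06 and 33611 and 19806 units in R-09 (0.55-fold, limma adjusted p = 0.5742). *S100a9*, a subunit of calprotectin, measured 2104 and 1915 (naive) and 1202 and 1699.9 units (treated) in FL-06 and 28856 and 13389 units in R-09. The whole marker list of 22 genes summed to 18196 and 17268 units in naive FL-06 against 13467 and 14236 treated, and to 193250 against 125360 units in R-09. *Mpo* and *Elane*, made by early granulocyte precursors, did not share this pattern, with log2 fold changes of 0.18 and −0.13. In bulk libraries fewer cells of a type and less RNA per cell cannot be told apart. *Cebpb*, the factor of emergency granulopoiesis, was also lower in both series, at 553 and 509.5 (naive) and 310.4 and 334 units (treated) in FL-06 and 3311 and 1883 units in R-09.

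The 12 with the smallest p among genes lower in both series were *Neat1*, *Malat1*, *Gm20605*, *Clk3*, *Ldb1*, *Clk1*, *D630039A03Rik*, *Ttc14*, *Rec8*, *2610005L07Rik*, *Rsrc2* and *Atxn2l*. None was on the interferon and MHC lists, and their folds ran from 0.27 to 0.73 with limma adjusted p from 0.3272 to 0.5676. *Neat1*, the long non-coding RNA around which paraspeckles form, measured 3731 and 4769.9 units in the FL-06 naive libraries, 2116 and 1996 units in the FL-06 treated ones, and 1361 units naive against 892 units treated in R-09. *Malat1*, a long non-coding RNA of nuclear speckles, measured 153455 and 124273 units in the FL-06 naive libraries, 88369 and 85941 units in the FL-06 treated ones, and 9549.6 units naive against 5062 units treated in R-09. In both transcripts each treated value lay below the naive values of its own series, as their selection required, and the series differed more than the treatments. *Clk1*, a kinase that phosphorylates splicing factors, measured 3171 and 2832 (naive) and 1995 and 1977 units (treated) in FL-06 and 3451 and 2199 units in R-09, with no overlap. *Clk3*, a kinase of the same family, measured 1325 and 1495 (naive) and 947 and 917 units (treated) in FL-06 and 2664 and 1614 units in R-09. *Ldb1*, a cofactor of the HSC transcription factor complexes, measured 5599 and 5718 (naive) and 3941 and 4029 units (treated) in FL-06 and 2315 and 1849 units in R-09. In the KO libraries 10 of the 12 were also lower after IFN-γ, where 49% of all genes were, but with a median log2 fold change of −0.12 there against −0.71 in WT. The difference between the genotypes passed the threshold for none of the genes tested (smallest limma adjusted p = 0.933).

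**Figure D5:**
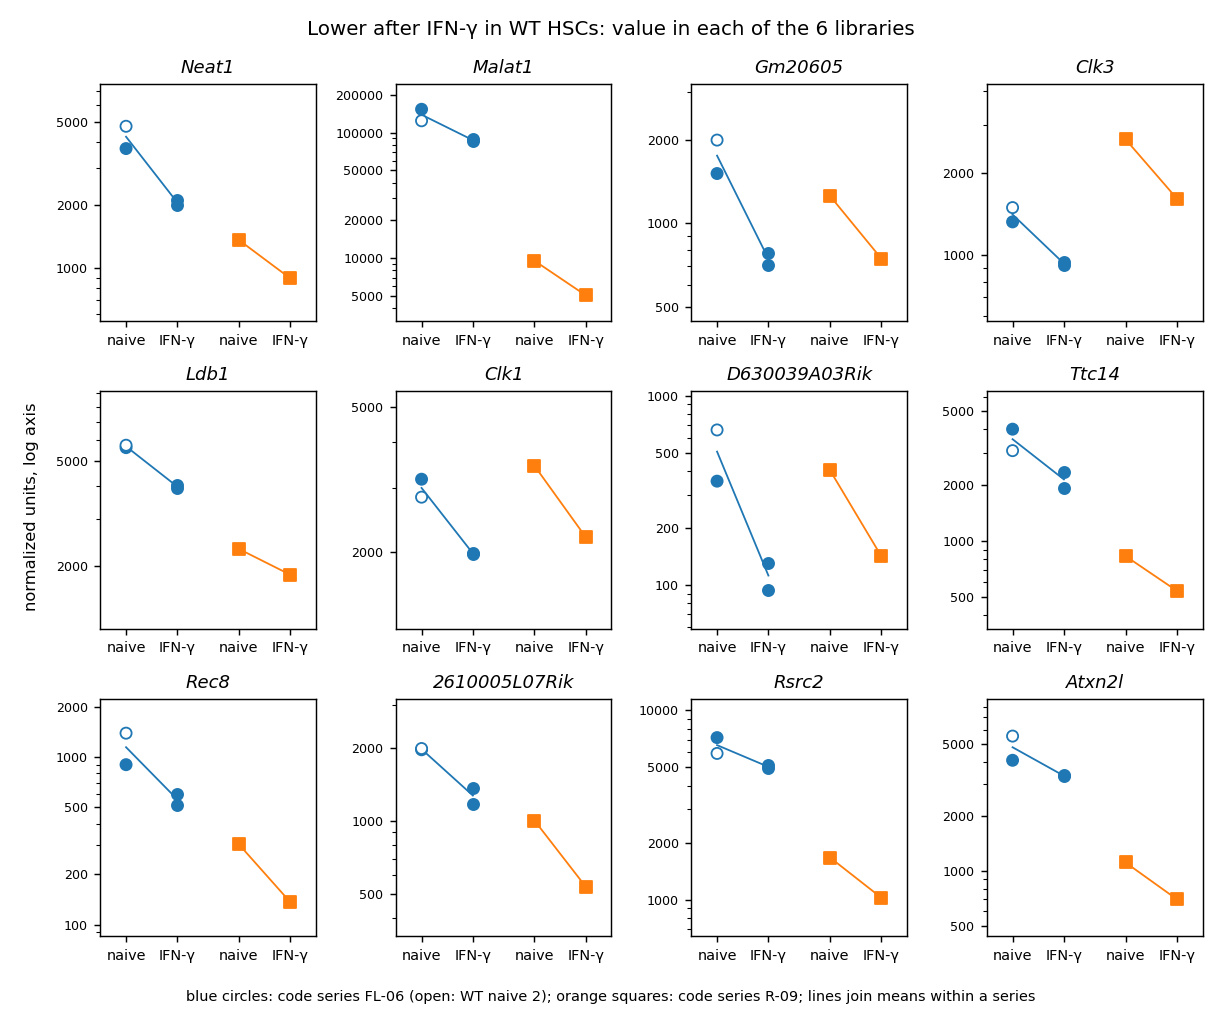
Normalized units (log axis) of the 12 lower genes in each of the 6 WT libraries, naive and IFN-γ-treated, by code series; each point is 1 library and lines join the means within a series. As the selection of the genes required, both lines descend in all 12 panels. For *Malat1* the R-09 libraries (orange) sit far below those of FL-06 (blue).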

How the data were processed

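The authors deposited 1 normalized signal per gene and library, which is not a whole number. The submitters' processing notes name STAR and DESeq, with no role; its genome build, annotation and use of strand were not given in the sources used here. Of 24972 rows, 26 whose names had become dates were left out. Only 3.28 to 4.43% of a WT library's values were whole multiples of its step (tolerance 0.01), so no reads were recovered and no count test was run. The log2(value + 1) scale was used, which understates changes of low genes and overstates those of genes listed at 0 in the shallow naive 2 (*Ifngr2* 2.65 with it and 0.02 without it), in 1 limma fit (3.58.1, R 4.3.3) of all 12 libraries. It had a mean for each of 4 groups, a term for code series and a trended prior (6 residual and 5.02 prior degrees of freedom), with Benjamini-Hochberg adjustment. The fit was tested on simulated data. Same-numbered naive and treated libraries deviated from their group means together (r = 0.548, 0.459 and 0.825), as did the crossed numbers of FL-06 (0.555 and 0.461). With the code series removed the same correlations were 0.139, −0.337 and −0.554, so no pairing beyond the series showed; the numbers come from the titles.

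Genes were named by a rule: any gene past the threshold, the 12 smallest p in each direction whose log2 values averaged 7 or more, with the same order in both code series, 4 genes with the smallest p and 2 with the highest mean per list, the gate genes and *Bst2*. Other named genes were chosen after their values were seen, and some genes the rule named are not reported here. The comparison, the lists and the rule were chosen with earlier results of these data known. Alternatives covered the pseudocount, filter, scaling, code series, replicate block, prior, array weights and leaving out libraries.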

Additional observations from a re-analysis of the deposited data

How the results depend on the processing

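*Cd74* had a log2 fold change between 2.22 and 3.06 in all 27 alternatives and an adjusted p between 0.0002051 and 1. The number of higher genes past the threshold was 1 as reported. It was 5 with a pseudocount of 10, 2 without a filter, 6 with at least 100 in all 12 libraries, 3 with quantile normalization, 8 with array weights and 5 with a mean of at least 1000 units, the last chosen after seeing the data. It was 0 with a pseudocount of 0.1, without the code series, with the 6 WT libraries only (with or without the code series, the latter also chosen after seeing the data), and without a trend in the prior. It was also 0 in both fits with the replicate block, on 12 libraries, where the block joins KO libraries of different code series, and on 6. It lay between 0 and 14 when 1 library was left out, with 14 without naive 3, and 1 with trimmed-mean rescaling or without the R-09 libraries. With at least 100 in all 12 libraries the 6 were *Cd74*, *H2-K1*, *H2-Ab1*, *Tap1*, *Gbp3* and *H2-Eb1*. The number of lower genes was 0 as reported and without a filter. It was 1 with at least 100 in all 12 libraries, with quantile normalization and with array weights, *Malat1* each time (adjusted p = 0.04537, 0.01328 and 0.01653), 1 (*Amd2*) without the R-09 libraries, and 0 to 1 without 1 library. The cause of these moves was not tested. As reported, 188 genes were lower at an unadjusted limma p under 0.05.

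The median of the class I list moved to 0.75 without the R-09 libraries, and that of the guanylate-binding proteins to 0.22 without a filter. The median of the Ifitm genes moved from 0.48 to 0.0429 with a pseudocount of 10, to −0.10 without a filter, with at least 100 in all 12 libraries and with a mean of at least 1000 units, and to −0.30 with quantile normalization. The medians of the MHC class II, class I, peptide loading, antiviral and both GTPase lists kept their sign in all 27 alternatives. So did the median of all tested genes (0.022 to 0.165) and those of the death, niche adhesion, megakaryocyte, replication, mitotic and neutrophil lists. Of the 27 alternatives, 12 give the reported list medians by construction and 15 can move them. The 12 higher and 12 lower genes named first were chosen for 1 direction in both series, which largely fixes their sign. Of the 147 genes the rule named, 121 kept their sign throughout. Depth may limit what naive 2 shows. If 1 step were 1 read, 3 reads there would be worth 102 units, and 16 of the 130 tested interferon and MHC genes lay below that level in it.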

Other observations

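Of 23 chemokines and other secreted interferon targets 8 were tested, of which 2 were higher and 1 lower in both series, with a median of 3.30 in FL-06, 1.17 there without naive 2 and −0.26 in R-09. The 4 genes given first were chosen after their values were seen, for a level of 0 in both FL-06 naive libraries, and 3 of them missed the level filter. *Cxcl9*, a chemokine that attracts activated T cells, measured 0 and 0 (naive) and 47.7 and 41.8 units (treated) in FL-06 and 8.36 and 87.7 units in R-09. *C4b*, a complement component, measured 0 and 0 (naive) and 131 and 179 units (treated) in FL-06 and 50.5 and 147 units in R-09, and *Serping1*, which inhibits complement C1, 0 and 0 (naive) and 21.1 and 14.9 units (treated) in FL-06 and 1.53 and 30.7 units in R-09. *Cfb*, complement factor B, measured 0 and 0 (naive) and 8.17 and 3.43 units (treated) in FL-06 and 0 and 27.4 units in R-09. Naive libraries at 0 leave no fold to read for these genes. Other members had the opposite order in R-09, among them *Cxcl10*, a chemokine of the same family as *Cxcl9*, with 0 and 0 (naive) and 30.9 and 25.6 units (treated) in FL-06 and 205 and 156 units in R-09, and *Ccl3*, a chemokine of inflammation, with 0 and 0 (naive) and 1.39 and 2.65 units (treated) in FL-06 and 124 and 37.5 units in R-09.

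*Il6ra*, the receptor chain for interleukin-6, measured 20.3 and 0 (naive) and 110.0 and 137 units (treated) in FL-06 and 26.3 and 51 units in R-09, with non-overlapping groups. *Rnf213*, a large interferon-inducible ubiquitin ligase that was on none of the lists and was picked after its values were seen, measured 11056 and 11615 (naive) and 17705 and 19151 units (treated) in FL-06 and 185 and 411 units in R-09 (1.80-fold, limma adjusted p = 0.5235). *Coro1a*, an actin regulator of blood cells, measured 1582 and 1362 (naive) and 2765 and 2909.8 units (treated) in FL-06 and 12707 and 15618 units in R-09, *Gtf3c4*, a subunit of the RNA polymerase III factor TFIIIC, 763 and 639 (naive) and 1379 and 1348 units (treated) in FL-06 and 333 and 619 units in R-09, *Ipo5*, an importin, 5699 and 5203 (naive) and 7508 and 7451 units (treated) in FL-06 and 1497 and 2192 units in R-09, and *Scd2*, a fatty acid desaturase, 3468 and 2433 (naive) and 4791 and 4896 units (treated) in FL-06 and 1397 and 2403 units in R-09.

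The T and NK cell list summed to 804 to 1837 units in FL-06 and to 4758 and 5438 units in R-09. Most of that was *Nkg7* and *Lat*. *Nkg7* lay at 33.6 to 304 units in FL-06 and at 3208 and 3732 units in R-09. *Lat* lay at 394 to 1540 units in FL-06 and at 1190 and 1257 units in R-09. *Cd3e*, part of the T cell receptor complex, was 1 of 6 members, of 21 in the table, at 0 in all 6 libraries. The B and plasma cell list summed to 1545 to 1892 units in FL-06 and to 5107 and 4480 units in R-09. Most of that was *Xbp1*, at 983 to 1525 units in FL-06 and 3747 and 2795 units in R-09. Mast cell and basophil markers summed to 6019 to 8462 units in FL-06 and to 8802 and 7383 units in R-09. Nearly all of that was *Gata2*, which is also on the stem cell list, at 5670 to 8462 units in FL-06 and 7547 and 6267 units in R-09. Of 24 tested erythroid genes 0 were higher and 5 lower in both series (median 0.03), and of 24 immediate early genes 1 was higher and 4 lower (median −0.20; 0.16 in FL-06 and −0.88 in R-09).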
